A study of Rattus norvegicus with 13 samples.

Results

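The comparison described here sets morula embryos of a DDT exposure lineage against morulae of the control lineage of rats, over all 1 kb windows of chromosomes 1 to 20. These are 2618741 of the 2782040 windows in the deposited tables, chosen by chromosome alone, and 6 of the 13 libraries of the series. The values are read counts of MeDIP-seq, the sequencing of DNA fragments that an antibody against 5-methylcytosine has pulled down, so the count of a window rises with its methylation and with its number of methylatable sites. Both lineages were bred from outbred Hsd:Sprague Dawley SD rats. Gestating females of generation F0 received daily intraperitoneal injections of the insecticide DDT, or of its vehicle DMSO in the control lineage, over embryonic days 8 to 14, and no later generation was dosed. Sperm came from F3 males, with animals of the colony aged to 1 year, and was injected into eggs of superovulated SD donor females of 6 to 12 weeks (intracytoplasmic sperm injection, ICSI). The embryos were cultured to the morula stage, pooled, and their DNA was extracted. Lineage thus enters these embryos through the sperm, and the labels name no lineage for the egg donors.

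As background, the mammalian genome loses most of its DNA methylation between fertilisation and the blastocyst. The paternal genome is stripped early, largely by oxidation of 5-methylcytosine, and the maternal genome is diluted over cell divisions. Imprinted regions and some repeats keep their marks through this phase, and a morula sits close to the low point. MeDIP-seq reports the relative enrichment of each window within a library. A uniform loss or gain over the whole genome would leave these relative values as they are.

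The 3 control morula libraries held 65864303, 58852592 and 48923904 counts in all, and the 3 DDT morula libraries 37842198, 40787673 and 40051075. Every DDT library was thus shallower than every control library, the lowest control total being 1.20 times the highest DDT total. The median autosomal window held 14 to 19 counts in a control library and 10 to 12 in a DDT library. A window was at 0 in 4.74% to 4.95% of cases in the control libraries and in 5.18% to 5.42% in the DDT libraries. A count of 0 allows up to 3 counts, which is 0.0455 to 0.0793 counts per 1000000 counts of the library (CPM), and such limits cover counting error only. Depth and lineage cannot be told apart in this design. No label states that the pools came from separate fathers or injection days, and the number of embryos per pool is not given in the sources used here, so a p-value here speaks of the variation among these libraries, which may be technical.

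The first question was whether embryos of one lineage resemble each other more than they resemble embryos of the other lineage. Libraries were thinned to the smallest total and compared by Pearson's r of log2(CPM + 0.5) over autosomal windows or sums of windows. At 1 kb the 6 pairs within a lineage had a mean r of 0.811, and the 9 pairs across lineages had a mean r of 0.811 too. On sums over 10 kb both means were 0.944, and on sums over 1 Mb they were 0.991 within and 0.992 across. The difference within minus across was not separable from 0 at any of the 3 scales in an exact permutation test over the 20 assignments of the libraries (two-sided p = 1, 0.8 and 1, and 1 in each case after Benjamini-Hochberg adjustment over the scales). The smallest p that this exact permutation test allows with 3 against 3 libraries is 0.1. At 1 kb and on 10 kb sums the sign of the difference turned with the lineage that lost a library. Leaving out a control library leaves more DDT than control pairs in the mean within lineages, and leaving out a DDT library fewer. The difference at 1 kb ran from -0.0052 to -0.0048 in r without any one control library. Without any one DDT library it ran from 0.0035 to 0.0070. On 10 kb sums it was likewise below 0 without a control library and above 0 without a DDT library. On 1 Mb sums it ran from -0.0021 to 0.0011.

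With the totals made equal, every control pair had a higher r than every DDT pair at 1 kb and on 10 kb sums. The 3 control pairs had a mean r of 0.821 at 1 kb and the 3 DDT pairs 0.801, and the pairs across lineages fell in the interval from 0.804 to 0.819. The mean r of DDT pairs minus that of control pairs was -0.0196 at 1 kb, -0.0107 on 10 kb sums and -0.0021 on 1 Mb sums. An exact permutation test over the libraries gave two-sided p = 0.1, 0.1 and 0.8, with adjusted p of 0.15, 0.15 and 0.8 over the 3 scales. With 3 against 3 libraries 0.1 is the smallest p this test allows, and it was reached at 1 kb and 10 kb. The test could thus not pass at any scale, whatever the size of the difference. At 1 kb the lowest pair of all joined DDT morula 2 and DDT morula 3 at 0.795. At 1 Mb the same pair was the highest of all 15, at 0.996. The lowest pair at 1 Mb joined control morula 2 and DDT morula 1, at 0.980, whereas control morula 3 and DDT morula 1 reached 0.993.

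**Figure D1:**
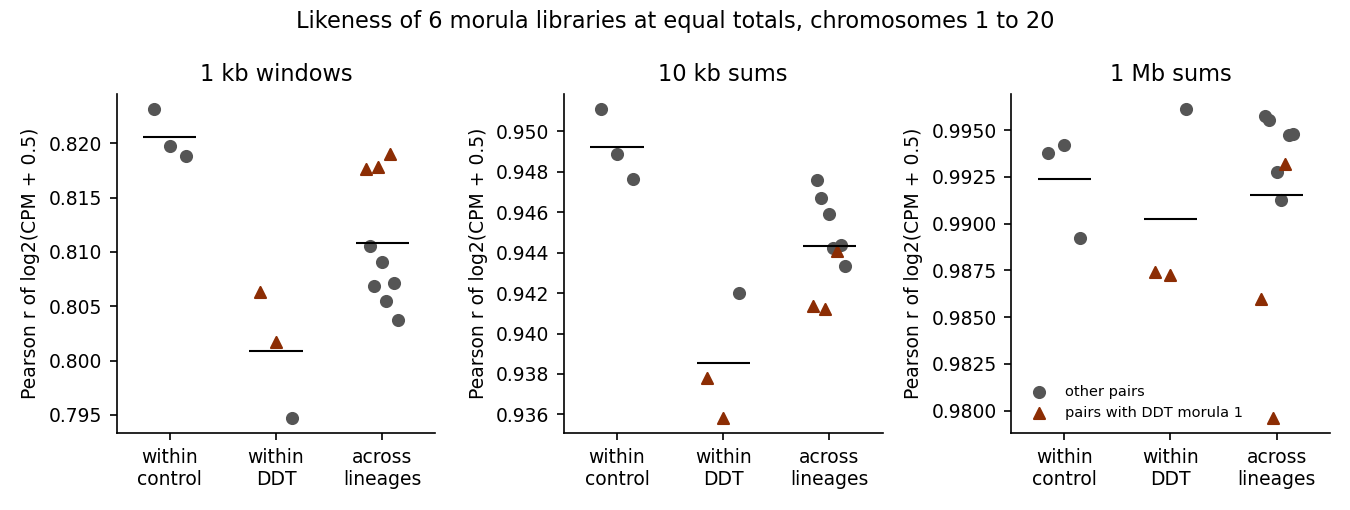
Pearson r of log2(CPM + 0.5) for each pair of the 6 morula libraries after thinning to equal totals (vertical axis, a different range in each panel), for pairs within control, within DDT and across lineages (horizontal axis), with lines at the means. Pairs across lineages lie between or among the pairs within a lineage at 1 kb. At 1 Mb 2 of them, both with DDT morula 1, lie below every pair within a lineage, and across-lineage pairs with DDT morula 1 (triangles) spread from 0.980 to 0.993 at 1 Mb.

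At 1 Mb the first principal component of the 6 libraries, after removing the mean of each bin, took 63.4% of the spread. Its weights were 0.80 for DDT morula 1, 0.19 for control morula 3, -0.11 and -0.13 for DDT morula 2 and 3, and -0.28 and -0.47 for control morula 1 and 2. The order along this axis mixes the lineages, with DDT morula 1 at one end and control morula 2 at the other. The same library had the largest weight at 10 kb (0.88 of a component with 26.7% of the spread) and at 1 kb (0.85, 22.5%). At 1 kb the next component, close to it in share, was carried by DDT morula 2 and 3, with weights of -0.72 and 0.68, and DDT morula 1 was nearer to the control libraries than either of them. DDT morula 1 thus stood apart on 1 Mb sums, where values without it are given for some of the results in which it was the extreme library.

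Tested window by window, no difference between the lineages passed. With edgeR's quasi-likelihood test, 0 of 2448077 autosomal windows of at least 30 counts in total had a Benjamini-Hochberg adjusted p under 0.05 (0%), and the smallest adjusted p was 0.999995. At an unadjusted p under 0.05 there were 109221 windows, or 4.46%, of which 53048 were higher and 56173 lower in DDT. DESeq2 passed 9 windows and limma voom 40, all of them higher in DDT relative to library totals and described further on. The median absolute difference was 0.27 on the log2 scale, and 95% of windows lay under 0.87. In 121154 windows all DDT libraries were above all control libraries (4.95%), and in 124511 all were below (5.09%).

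Summing windows narrowed the differences without bringing any past the threshold. Over 10 kb, 0 of 259325 bins passed the same test (0%), with 11448 bins, or 4.41%, at an unadjusted p under 0.05 and a smallest adjusted p of 0.547. Over 1 Mb, 0 of 2629 bins passed (0%), with 58 bins, or 2.21%, at an unadjusted p under 0.05 and a smallest adjusted p of 0.968. With 1 library left out, the number of 1 Mb bins at an unadjusted p under 0.05 ranged from 16 to 171. The low counts were 16 (0.609%, without control morula 2) and 19 (0.723%, without control morula 1). The high counts were 116 (4.41%, without DDT morula 2) and 171 (6.504%, without control morula 3). DESeq2 gave 159 (6.05%) and limma voom 36 (1.37%), and both tools passed 0 bins at both lengths after adjustment. All DDT libraries were above all control libraries in 4.6% of the 10 kb bins and below in 5.04%, and in 3.88% and 3.73% of the 1 Mb bins. The median absolute log2 difference shrank from 0.27 in 1 kb windows to 0.09 over 10 kb and 0.02 over 1 Mb. The coefficient of variation between replicates, taken from the median dispersion of the fit, shrank alongside, from 23.6% to 8.77% and 1.96%. The most distant windows lay at -3.76 and 3.04 at 1 kb, while the most distant 1 Mb bins lay at -0.11 and 0.26. The estimate exceeded 2-fold in 66969 of 2448077 windows at 1 kb, in 38 of 259325 bins at 10 kb and in 0 of 2629 bins at 1 Mb. At 1 kb the 95% interval reached a median of 0.85 on the log2 scale to either side, so many such estimates can come from error alone.

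The same test passed many windows in another contrast of the series that uses the same control embryos. Morula against sperm in the control lineage, also 3 against 3, passed 24.8% of 1 kb windows, 40.5% of 10 kb bins and 81.2% of 1 Mb bins. The smallest differences that passed there were 1.81-fold at 1 kb, 1.28-fold at 10 kb and 1.05-fold at 1 Mb. The adjusted threshold is looser where many windows pass, so these sizes do not give the sensitivity of the contrast between lineages. DDT against control in the sperm of the same generation passed 0% at each length, with 4.73%, 4.13% and 1.64% of windows or bins at an unadjusted p under 0.05. The sperm and morula contrasts were fitted separately and the difference between them is not tested here.

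How large a difference could have gone unseen was read from the 95% interval of each window's log2 difference. At 1 kb the median interval reached 0.85 to either side of its estimate, and it lay wholly inside 2-fold in either direction for 33.9% of windows and inside 4-fold for 96.6%. Over 10 kb it reached 0.28 to either side, and 93.3% of bins lay inside 1.5-fold and 99.4% inside 2-fold. Over 1 Mb it reached 0.05, a change of 3.45%, and 97.6% of bins lay inside 1.1-fold. Of the 2629 bins of 1 Mb, 64 were not inside 1.1-fold and 0 were not inside 1.5-fold.

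To stand out among all windows tested, a lone window needs a larger difference. The difference that would pass a threshold of 0.05 divided by the number of windows tested had a median of 6.21-fold at 1 kb, 1.71-fold at 10 kb and 1.1-fold at 1 Mb. Intervals widened to hold over all windows at once lay inside 4-fold for 7.64% of 1 kb windows. They lay inside 2-fold for 79.0% of 10 kb bins and inside 1.5-fold for 99.9% of 1 Mb bins. A 2-fold difference in a lone 1 kb window was therefore not detectable at this depth in most windows, whereas one sustained over 10 kb was above the median size needed. With 1 library left out, 19.3% to 23.0% of 1 kb windows lay inside 2-fold, a drop of over 1.5 times without control morula 1, control morula 2, DDT morula 2 or DDT morula 3.

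**Figure D2:**
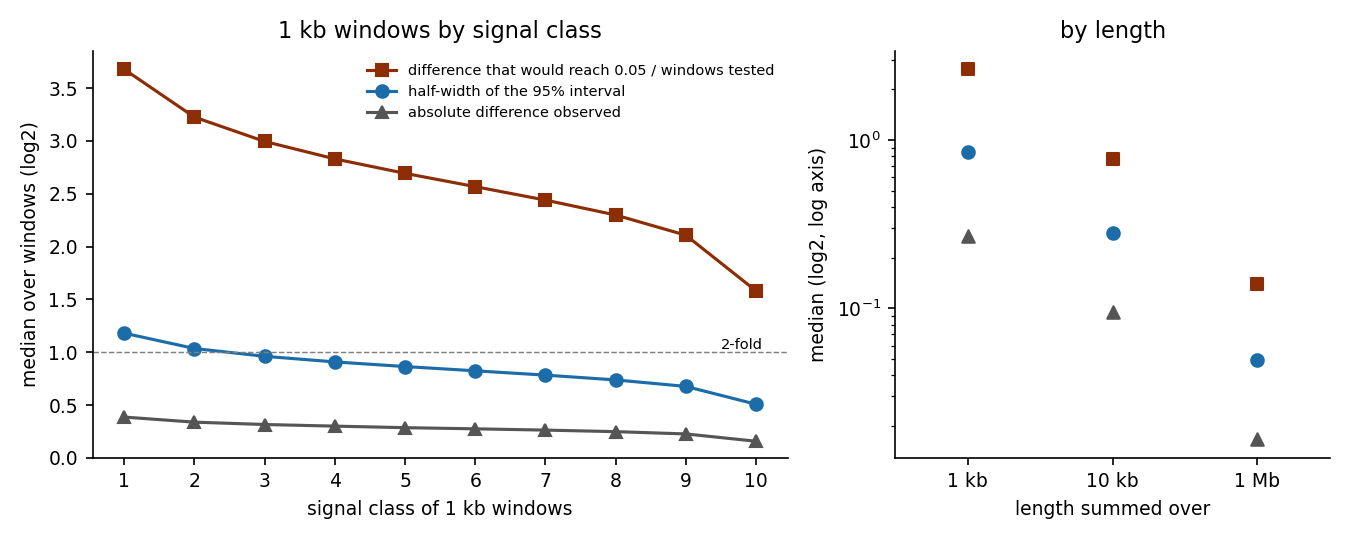
Left, for 10 classes of 1 kb windows from lowest to highest signal (horizontal axis), the median over windows, in log2 units, of the observed absolute difference, of the reach of the 95% interval to either side, and of the difference that would pass a threshold of 0.05 divided by the number of windows tested. Right, the same medians for 1 kb windows and for sums over 10 kb and 1 Mb on a log axis. All 3 fall with signal and with length, and the observed difference is the smallest of them throughout.

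The width of the interval followed the signal of a window. The tested windows were cut into 10 classes of equal number by their mean CPM over the 6 libraries, from a median of 0.164 CPM in the lowest class to 0.857 CPM in the highest. The 95% interval reached 2.27-fold to either side in the lowest class, 1.82-fold in the fifth and 1.42-fold in the highest. It lay inside 2-fold for 0% of windows in the lowest class and for 92.4% in the highest. No class held a window past the test, and between 3.79% (highest class) and 4.82% (eighth class) of windows had an unadjusted p under 0.05.

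The share of counts in a class varied from library to library within both lineages. The highest class took 30.2%, 30.7% and 32.1% of the autosomal counts of control morula 1, 2 and 3, and 35.3%, 30.9% and 30.4% of those of DDT morula 1, 2 and 3. DDT morula 1 was highest and control morula 3 next, while DDT morula 2 and 3 lay among the control libraries. The lowest class took 4.34%, 4.14% and 4.11% in control and 3.68%, 4.03% and 4.06% in DDT. There the groups did not overlap, DDT morula 1 being again the farthest out, and without it the DDT shares were still below the lowest control share. Windows were tested from a raw total of at least 30 counts, to which the deeper control libraries gave more. Near this minimum the choice favours windows higher in control, so the lowest class leans towards a lower DDT share by selection. How far it does so was not tested. The mean share of the lowest class was 4.19% ± 0.13 (SD, n = 3) in control and 3.92% ± 0.21 (SD, n = 3) in DDT, with an exact permutation p of 0.1, which is the smallest this design allows, and an adjusted p of 1 over the 10 classes.

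**Figure D3:**
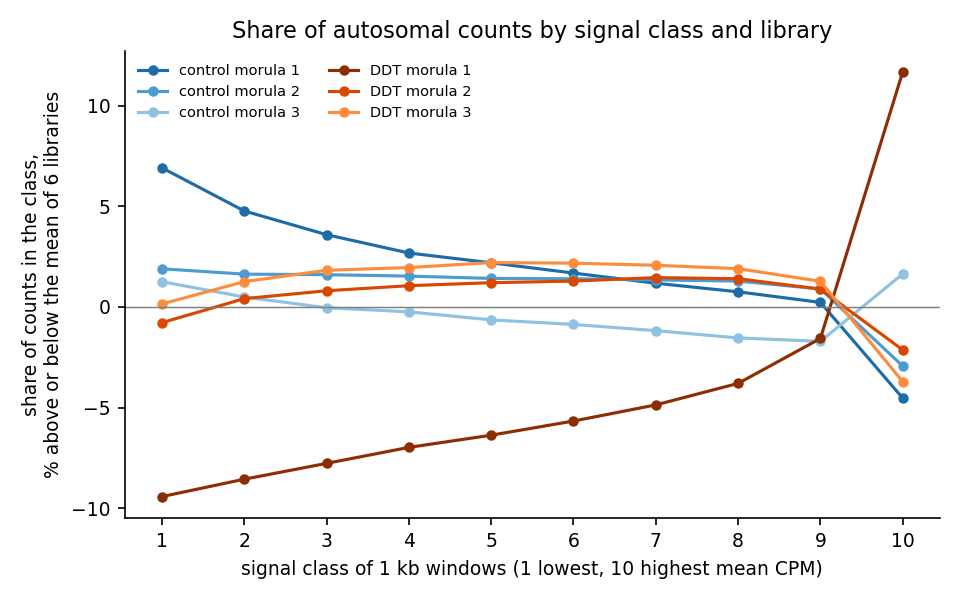
Share of autosomal counts that each library placed in each of 10 signal classes (horizontal axis, 1 lowest to 10 highest mean CPM), in percent above or below the mean of the 6 libraries (vertical axis), with one line per library. DDT morula 1 runs from below the others in class 1 to above them in class 10, and the other 5 libraries of both lineages interleave in most classes.

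The per-window differences followed the same slope. Their median was -0.08 on the log2 scale in the lowest class and 0.07 in the highest, and the share of windows higher in DDT rose from 44.6% to 62.0%. The minimum raw count bears on the values of the lowest class here as well. Without DDT morula 1 the median of the highest class was -0.02, on the other side of 0, while that of the lowest class was -0.07. When the classes were set by the signal in the 7 sperm libraries instead of the morulae, the lowest class had a median of 0.03 and the highest of 0.02. On 10 kb sums the class medians ran from -0.01 to 0.06 and on 1 Mb sums from -0.01 to 0.03.

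Likeness was also taken in classes set by sperm signal, over the windows that passed the minimum count in the morula libraries. In the class of lowest sperm signal the mean r between morula libraries was 0.240 within lineages and 0.241 across. In the fifth class both were 0.400, and in the highest class both were 0.928. Within minus across ranged from -0.00115 to 0.000426 in r over the 10 classes, while r itself rose with sperm signal. The mean within lineages pools control and DDT pairs, which were not set apart by class. Over all 1 kb windows the control pairs had a mean r of 0.821 and the DDT pairs 0.801.

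Windows of very high signal behaved differently from the rest, in every library. The 41 autosomal windows whose mean over the libraries reached 1000 counts held on average 1270, 1231 and 1199 counts in control morula 1, 2 and 3 and 1128, 1125 and 1111 in DDT morula 1, 2 and 3. The group means of these counts differed by a factor of 1.1, and those of the library totals by a factor of 1.46. Relative to the totals, these windows were at 21.6 ± 2.7 CPM (SD, n = 3) in control and 28.4 ± 1.2 CPM (SD, n = 3) in DDT, and in 40 of 41 every DDT library lay above every control library (97.6%, against 4.95% of all tested windows). In windows of 20 to 50 mean counts, which make up 421977 windows, the ratio of counts was 1.48, and the values were 0.545 ± 0.0062 CPM in control and 0.541 ± 0.0026 CPM in DDT (SD, n = 3 each). The ratio of counts was 1.39 at 100 to 200 mean counts, 1.34 at 200 to 400 and 1.24 at 400 to 1000.

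**Figure D4:**
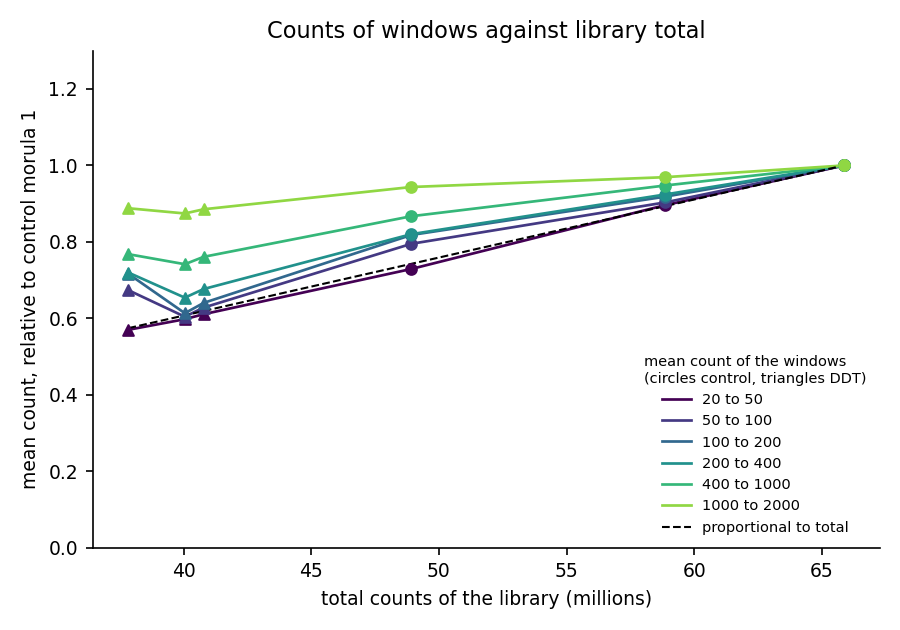
Mean count of windows grouped by their mean count over the 6 libraries, relative to control morula 1 (vertical axis), against the total counts of each library (horizontal axis). Circles are control and triangles DDT libraries. Windows of 20 to 50 counts follow the dashed line of proportion to the total, and windows of 1000 to 2000 counts lie above it in the other 5 libraries, with means of 1111 to 1231 counts against 1270 in control morula 1.

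The window of highest signal shows this in counts. At chr13:33504001-33505000 of the rat build Rnor_6.0 the control libraries held 1751, 1734 and 1728 counts and the DDT libraries 1682, 1681 and 1653. Every control library had more reads there than every DDT library, but relative to library totals the order turned, with 26.6, 29.5 and 35.3 CPM in control and 44.4, 41.2 and 41.3 CPM in DDT. At chr1:180808001-180809000 the counts were 1556, 1544 and 1542 in control and 1537, 1528 and 1496 in DDT, a spread of 1.04 times from lowest to highest. Within the control group CPM at this window also followed depth, from 23.6 in the deepest library to 31.5 in the shallowest.

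The windows that passed with DESeq2, limma voom or a trend offset in edgeR were all of high signal. DESeq2 was run with its default filter, which leaves windows of low mean count out of the adjustment, so these could not pass with it. Among the 1 kb windows named below, only chr18:41461001-41462000 had an adjusted p with DESeq2 (0.189). All 9 windows passing with DESeq2 were among the 40 passing with limma voom. So were the 12 passing in edgeR with an offset fitted to each library's trend with abundance. This offset was fitted over large groups of windows and held level past the middle of the highest group. It thus did not follow the trend among the windows of highest signal, where the 12 lay, at log2 differences of 0.34 to 0.46. The mean counts of the 40 were at least 539. In 34 of the 40 every control library held more raw counts than every DDT library, although all 40 were called higher in DDT. Of the 40, 18 lay in the 1 Mb bin chr1:180000001-181000000 and 7 in the bin chr13:33000001-34000000.

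The authors' deposited table gives a p-value for 2117806 autosomal windows, with 96908 (4.58%) under 0.05 and 2 at an adjusted p under 0.05, both higher in DDT. One of the 2 was again a window of very high signal, chr4:77452001-77453000, with 1159, 1082 and 939 counts in control and 868, 931 and 949 in DDT. Its log2 difference was 0.36 in size in the authors' deposited table (adjusted p = 0.00456) and 0.35 ± 0.14 (SE) with edgeR's quasi-likelihood test (adjusted p = 0.999995). The other, chr2:225171001-225172000, is described next.

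Among autosomal 1 kb windows the 3 of smallest p in each direction were of low or moderate counts, and none passed. The window chr2:225171001-225172000 held 14, 16 and 10 counts in control and 24, 32 and 31 in DDT, or 0.230 ± 0.037 against 0.731 ± 0.084 CPM (SD, n = 3 each). Every DDT library lay above every control library, even in raw counts. The log2 difference was 1.68 ± 0.35 (SE), with p = 3.99e-06 before and 0.999995 after adjustment by edgeR's test, and an adjusted p of 0.0315 in the authors' deposited table. The 6 windows within 3 kb of it had differences of -0.88 to 0.37, none of them near that of the window itself. In the 7 sperm libraries this window ranged from 0.119 to 0.614 CPM, with DDT and control interleaved.

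At chr10:84244001-84245000 the control libraries held 4, 7 and 5 counts and the DDT libraries 12, 24 and 22. The groups did not overlap, and the log2 difference was 2.38 ± 0.50 (SE). Its signal was at most 0.0572 CPM in any of the 7 sperm libraries. At chr18:41461001-41462000 the counts were 44, 46 and 27 in control and 66, 53 and 54 in DDT, a log2 difference of 1.15 ± 0.24 (SE). The next window on its right side leaned the same way, at 1.00 with an unadjusted p of 0.00176 by edgeR's test, and was the only one of the 36 flanking windows of these 6 with a p under 0.01.

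The lowest windows in DDT mirrored these. At chr18:14044001-14045000 counts were 38, 39 and 14 in control and 3, 4 and 3 in DDT, a log2 difference of -2.55 ± 0.55 (SE). At chr2:215554001-215555000 they were 36, 23 and 15 against 3, 2 and 3, at -2.57 ± 0.61 (SE). All DDT libraries were below all control libraries at both, and the DDT counts at the second were at or under the floor of 3 counts. At chr11:2347001-2348000 counts were 63, 60 and 37 in control and 5, 19 and 11 in DDT, at -1.61 ± 0.34 (SE). Here DDT morula 2 was the highest of its group, still under control morula 3 (0.466 against 0.756 CPM).

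On 10 kb sums the bins of smallest p were lower in DDT. The bin chr13:56870001-56880000 held 288, 257 and 196 counts in control and 93, 115 and 110 in DDT, or 4.25 ± 0.21 against 2.67 ± 0.19 CPM (SD, n = 3 each). Every DDT library was below every control library, and the log2 difference was -0.65 ± 0.13 (SE), with an adjusted p of 0.547 by edgeR's test. All 10 of its windows leaned lower, and 3 of them did so without overlap of the groups. The bin chr2:104280001-104290000 held 195, 169 and 125 counts in control and 65, 43 and 77 in DDT, at -0.83 ± 0.18 (SE), and again all 10 windows leaned lower. The bin chr7:11620001-11630000 held 257, 244 and 226 against 100, 95 and 123, at -0.64 ± 0.14 (SE), with 9 of 10 windows lower. Bins chosen by the p of their sum, as these were, favour windows that lean together.

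Of the 10 kb bins higher in DDT, the 3 of smallest p had log2 differences of 0.55 to 0.65. The bin chr2:78890001-78900000 held 250, 142 and 163 counts in control and 167, 200 and 193 in DDT, at 0.58 ± 0.13 (SE) on the log2 scale. Control morula 2 was the lowest and control morula 1 the highest of the controls, at 2.41 and 3.80 CPM, and the lowest DDT library stood at 4.41 CPM. The bins chr2:155860001-155870000 and chr16:65130001-65140000 had log2 differences of 0.65 ± 0.15 and 0.55 ± 0.13 (SE). In both the groups did not overlap, and 9 of 10 and 7 of 8 tested windows leaned higher. None of the 3 passed, with adjusted p of 0.777 for the first and 0.9997 for the others by edgeR's test.

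**Figure D5:**
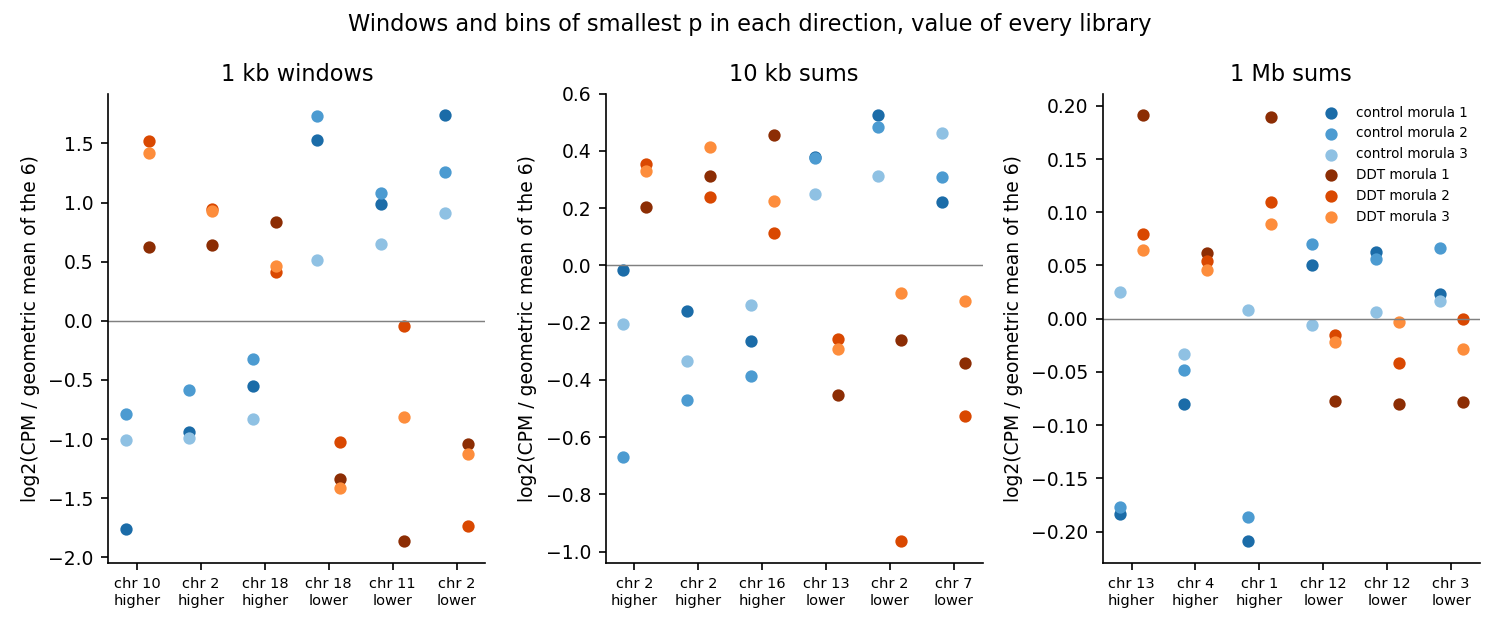
Signal of every library, as log2 of its CPM over the geometric mean of the 6 libraries (vertical axis), at the 3 windows or bins of smallest p in each direction at 1 kb, 10 kb and 1 Mb (horizontal axis, in the order of the ranks, with the chromosome and the direction in DDT). Control libraries are blue and DDT libraries red to orange. The groups do not overlap at any of the 18, as the choice by smallest p favours, and the spread shrinks from panel to panel.

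On 1 Mb sums the 3 bins of smallest p among those higher in DDT lay, in order of p, on chromosomes 13, 4 and 1. The bin chr1:180000001-181000000 ranked 1 of 2629 by signal and chr13:33000001-34000000 ranked 7. The chromosome 1 bin was at 1649, 1675 and 1916 CPM in control morula 1, 2 and 3. In DDT morula 1, 2 and 3 it was at 2174, 2056 and 2027 CPM. Control morula 3, the shallowest control library, was the nearest of its group to the DDT libraries. The log2 difference was 0.26 ± 0.07 (SE), with an adjusted p of 0.968 by edgeR's test. The chromosome 13 bin was at 1084 ± 90.9 CPM in control and 1264 ± 61.6 CPM in DDT (SD, n = 3 each). Its log2 difference was 0.23 ± 0.06 (SE), again with control morula 3 nearest to DDT. Without DDT morula 1 the log2 differences were 0.23 and 0.18, and neither passed. Without control morula 3 both bins passed, with log2 differences of 0.34 and 0.30 and an adjusted p of 0.0278 each by the same test.

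Part of the difference of the chromosome 1 and chromosome 13 bins lay in windows of high signal. With the 0.1% of windows of highest signal in the genome removed, their log2 differences were 0.11 and 0.09 in place of 0.26 and 0.23. The 10 windows of highest signal held 12.8% to 16.0% of the counts of the chromosome 1 bin, and with these removed the ratio of mean CPM was 0.23 on the log2 scale. In the chromosome 13 bin they held 16.7% to 19.6%, and the ratio without them was 0.20. Of 660 tested windows in the chromosome 1 bin 496 leaned higher in DDT, with a median of 0.16. In the chromosome 13 bin 435 of 682 did, with a median of 0.12. The chromosome 4 bin, chr4:77000001-78000000, ranked 75 by signal and holds the chromosome 4 window of the authors' deposited table. It was at 547 ± 8.97 CPM in control and 589 ± 3.29 CPM in DDT (SD, n = 3 each), a log2 difference of 0.11 ± 0.03 (SE), and its 10 highest windows held 24.9% to 29.4% of its counts. With the 0.1% of highest windows removed its difference was 0.03. Without DDT morula 1 the difference was 0.106, against 0.115 with all libraries, and the bin did not pass.

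Of the 1 Mb bins lower in DDT, the 3 of smallest p stood at signal ranks 1228, 2005 and 1555 of 2629. The bin chr12:46000001-47000000 was at 360, 365 and 346 CPM in control and 329, 344 and 342 CPM in DDT, at -0.07 ± 0.02 (SE). The bins chr12:27000001-28000000 and chr3:45000001-46000000 were at -0.08 ± 0.02 and -0.06 ± 0.02 (SE). The groups did not overlap in any of the 3, but the lowest control and the highest DDT library were close, at 346 and 344 CPM in the first. In all 3 DDT morula 1 was the lowest library, and without it the differences were -0.06, -0.06 and -0.05 in the same order.

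Over whole chromosomes the lineages differed by at most 1.07% of a chromosome's share of the autosomal counts. By this relative measure chromosome 12 was the farthest, with 1.96%, 1.99% and 1.96% of counts in control and 1.94%, 1.95% and 1.95% in DDT. Its difference was -0.0211 percentage points. Without control morula 2 the relative difference of this chromosome was -0.529% in place of -1.07%, and chromosome 14 was then the farthest, at 0.739%. Without DDT morula 3 the farthest was chromosome 10, at -1.19%. Without DDT morula 1 it was still chromosome 12, at -0.922%. Chromosome 10 was at 4.01% ± 0.04 in control and 3.98% ± 0.05 in DDT (SD, n = 3 each), and here the groups overlapped. Chromosome 14 was at 4.48% ± 0.0037 in control and 4.51% ± 0.019 in DDT (SD, n = 3 each), every DDT library lying above every control library. DDT morula 1 was the highest there, at 4.54%, and DDT morula 2 and 3 were at 4.50% each. In percentage points the largest differences were those of chromosome 1 (0.0802) and chromosome 2 (0.0429), where the groups overlapped. In 5 of 20 chromosomes the groups did not overlap, 2 higher and 3 lower in DDT, each at the smallest exact permutation p of 0.1. The smallest p adjusted over the 20 chromosomes was 0.4.

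Estimated differences between the lineages were scarcely shared by neighbouring 1 kb windows or 10 kb bins, whereas neighbouring 1 Mb bins shared them in part. Across windows, adjacent 1 kb windows had log2 differences that correlated at r = 0.079 over 2400913 pairs, which share fragments that span their border, and windows 2 kb apart at r = 0.006. Adjacent 10 kb bins were at r = 0.042 over 258144 pairs. The median SE exceeded the median absolute log2 difference at both lengths, with 0.43 against 0.27 at 1 kb and 0.14 against 0.09 over 10 kb. Error of this size lowers r, so these values do not show whether true differences were shared. Adjacent 1 Mb bins were at r = 0.402 over 2609 pairs, falling to 0.062 at a distance of 10 Mb. These are descriptions across sites of the same 6 libraries, in which a gradient of any 1 library is shared by neighbours, and carry no test.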

How the data were processed

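MeDIP-seq libraries of 3 control and 3 DDT morula pools were compared, with 3 control and 4 DDT sperm libraries as context. The authors deposited raw read counts per 1 kb window on the build Rnor_6.0, with their own log2 fold changes, p-values and adjusted p-values per window. Bowtie2, SAMtools, Trimmomatic, FastQC and edgeR are listed, with no version, in the submitters' processing notes. Duplicate handling and mapping filters are not given in the sources used here. The counts of a library were identical in each deposited table that holds it. The 26 deposited RPKM columns were not used.

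Counts were tested as deposited, and summed over 10 kb and 1 Mb bins aligned at position 1, with edgeR 4.0.16 in R 4.3.3 (TMM, trended dispersion, quasi-likelihood test, two-sided). Windows or bins with at least 30 counts over the 6 libraries were tested over the whole table, X, Y and MT included. Benjamini-Hochberg adjustment ran over all of them, with 0.05 as the threshold, and chromosomes 1 to 20 are reported. Standard errors and 95% intervals are Wald intervals with the squeezed quasi-dispersion. Likeness, class shares and chromosome shares were compared by exact permutation over the libraries. The 3 windows or bins of smallest p per direction and scale are named, since none passed. As alternatives, DESeq2 1.42.0, limma voom (limma 3.58.1), scaling by library size or by DESeq2 size factors, other minimum counts, thinning, a trend offset, autosomes alone, removal of the 0.1% of windows of highest signal, shifted bins, a replicate block, and leaving out each library were run. The comparison, the choice of windows and the lists were made with earlier results of these data known. A common dispersion, the groups by mean count, likeness by sperm class, the comparison of DDT pairs with control pairs and the account of windows passing under other tests were added after seeing the data.

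The annotation at hand is of another build, so no gene is named and no sequence is shown. Total counts of 37842198 to 65864303 per library left a median of 10 to 19 counts per window, which limits the precision at 1 kb.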

Additional observations from a re-analysis of the deposited data

Results flagged for a closer look

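Outside chromosomes 1 to 20, the mitochondrial genome and a window of chromosome X had a higher mean in DDT than in the control embryos, and neither passed the test. In the mitochondrial genome, summed as 1 bin, the control libraries held 19900, 24058 and 23138 counts and the DDT libraries 23023, 20019 and 23121. Raw counts of the groups overlapped, and relative to totals they were 0.0395% ± 0.0086 against 0.0559% ± 0.0061 of all counts (SD, n = 3 each). The log2 difference was 0.51 ± 0.11 (SE), with the smallest p of all bins on 1 Mb sums and an adjusted p of 0.817 by edgeR's test. The counts thus hardly followed the library totals, as in the autosomal windows of highest signal, and depth and lineage cannot be told apart here.

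On chromosome X the window chrX:105196001-105197000 of Rnor_6.0 held 0, 0 and 2 counts in control and 10, 14 and 12 in DDT. Its log2 difference of 4.44 had the smallest p of all 1 kb windows and an adjusted p of 0.999995 by edgeR's test. The control group held 2 counts in all, so this fitted value depends on the prior count. The ratio of pooled counts relative to totals was 26.3, with an exact 95% counting interval of 6.78 to 225.8. Another window of the same chromosome, chrX:77263001-77264000, ranked 3 by p and was lower in DDT, with 84, 8 and 4 counts in control and 0, 2 and 3 in DDT. Control morula 1 held most of its counts, and its adjusted p was 0.999995 as well by edgeR's test.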

How the results depend on the processing

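The count of autosomal features past the threshold was 0 at each length with library-size scaling, DESeq2 size factors, other minimum counts, thinning, autosomes alone, removal of the highest windows and a common dispersion, and at 10 kb and 1 Mb with shifted bins. At 1 kb it was 9 with DESeq2, 40 with limma voom, 12 with the trend offset, 2 by the authors' adjusted p and 10 at an unadjusted p under 1e-05 (5 in each direction). At 10 kb it was 9 with the trend offset, all higher in DDT, and 3 at an unadjusted p under 1e-05, all lower. Leaving out each library gave 0 at 1 kb and 10 kb and 0 to 2 at 1 Mb, the 2 without control morula 3. The share of 1 kb windows inside 2-fold was 19.3% to 23.0% with a library left out, which has fewer samples, and 36.1% with limma voom. The median of the lowest signal class was 0.035 with classes by sperm signal. The cause of these changes was not tested. Of 324 values for the named windows and bins under alternatives, 0 changed direction and 2 passed. Named 1 kb windows other than chr18:41461001-41462000 had no adjusted p with DESeq2 and could not pass there. The authors' adjusted p, under which chr2:225171001-225172000 passed (0.0315), is not among these values. No label says whether the replicate numbers pair the libraries. Deviations of same-numbered libraries correlated at -0.357, 0.434 and -0.492 on 1 Mb sums, and those of other-numbered libraries at -0.542 to 0.636. These values cannot show whether the numbers mark a pairing. With the replicate number as a block the count past the threshold was 0 at each length and 30.9% of 1 kb windows lay inside 2-fold. Thinned to the smallest library, 26.2% of 1 kb windows lay inside 2-fold, and a DDT library held a median of 10 to 12 counts in a window.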

Other observations

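The difference between lineages in morulae was set beside the same difference in sperm, since these contrasts share no library. Across windows r was 0.014 at 1 kb over 2323208 windows and 0.044 over 259197 bins of 10 kb. Without DDT morula 1 these values were -0.008 and -0.011, on the other side of 0. On 1 Mb sums r was -0.04 with all sperm libraries, 0.23 without the 2 shallowest sperm libraries (control sperm 3 and DDT sperm 4), and 0.04 when DDT morula 1 was left out as well. The sign of the relation thus changed with the libraries that entered, and these values carry no test.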
